A study of Mus musculus with 16 samples.

Results

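The levels of 8 genes were described in 16 RNA sequencing libraries of mouse liver cells, namely Cpxm1, Steap4, Plek, Sphk1, Clic4, Ralgds, Ppfia3 and Fem1c. They were given as a list of genes that stood higher in the Kupffer cell libraries labelled KO than in those labelled WT, so that the Kupffer cell values chose them and are given below as a description without a test. They are 8 of the 47729 gene rows of the count tables, and all 8 were found by their symbol. Ranked by unadjusted p in Kupffer cells, they took 8 of the first 13 places among 13867 genes. The last of them, Fem1c (rank 13, log2 fold change 1.47), was followed by Mmp13 (rank 14, 2.19), and Vcam1 (1.79) and Ccl22 (3.56) were also higher within the first 13 but are not on the list.

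The study asked what loss of the transcription factor Zeb2 in liver endothelial cells (ECs) does to these cells and to their neighbours. ECs, hepatic stellate cells (HSCs, the vitamin A storing pericytes of the liver), Kupffer cells (KCs) and hepatocytes (HEPs) were sorted from unchallenged livers, with 2 libraries for each cell type and genotype label (n = 2 per group). Mice labelled KO carried floxed Zeb2 alleles and a tamoxifen-inducible Cre under the EC promoter Cdh5, and mice labelled WT were Cre-negative littermates. All mice, controls included, received 2 mg tamoxifen per day for 5 days, were adult, and by the study's methods were 8-week-old males examined 2 weeks later. The Cre driver is active in ECs, so that Kupffer cells, HSCs and hepatocytes of both labels are meant to keep an intact Zeb2 gene. HSCs were sorted by their UV autofluorescence, and from the UV-negative cells Kupffer cells were taken by F4/80 and ECs by a pan-endothelial antigen. Which libraries share a mouse is not given, and p-values below measure the spread between 2 libraries only.

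The library totals lay between 12872706 and 15690506 reads on genes, with a median of 14806833. Levels are given as CPM, the counts scaled to the library's total on genes, and 3 counts, taken as the floor of detection, are worth 0.191 to 0.233 CPM. Zeb2 itself was at 106 and 106 CPM in the EC libraries labelled WT (34 and 38) and at 199 and 130 CPM in those labelled KO (6 and 46). The EC libraries labelled KO thus did not have a lower Zeb2 count, and both stood above both WT libraries. The log2 fold change was 0.62 (SE 0.24, adjusted p = 0.303, edgeR quasi-likelihood test). Only exon 7 is flanked by loxP sites, while the count covers all 19942 exon bases of the gene, so that a transcript without that exon is counted too. Reads on exon 7 were not examined, and the cause of these Zeb2 levels was not tested. All groups are named by their labels. In Kupffer cells Zeb2 was at 286 and 314 CPM in the libraries labelled WT (31 and 39) and at 297 and 235 CPM in those labelled KO (27 and 43), with an adjusted p of 0.961 (edgeR quasi-likelihood test). All 10 Kupffer cell markers were detected in every KC library, with a median level of 104%, 95.5%, 84.8% and 88.1% of the WT mean in libraries 31, 39, 27 and 43. The marker Marco stood apart in library 31, with 9163 CPM against 551 CPM in the other WT library, and the biological coefficient of variation was 51.0% in KCs against 36.8% to 42.6% in the other cell types.

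Kupffer cells are the resident macrophages of the liver. They sit in the sinusoids next to the endothelium, take up particles and worn red cells from the blood, recycle iron, and change their transcript profile quickly on contact with microbial products or during tissue digestion. The 8 genes belong to different families. Cpxm1 encodes a secreted protein of the metallocarboxypeptidase family and Steap4 a membrane metalloreductase for iron and copper. Plek encodes pleckstrin, a protein kinase C substrate of platelets and leukocytes, Sphk1 the kinase that makes sphingosine 1-phosphate, and Ralgds an exchange factor that links Ras to the Ral GTPases. Clic4 encodes a chloride intracellular channel protein, Ppfia3 the scaffold liprin-alpha-3, best known from synapses, and Fem1c a substrate receptor of a cullin 2 ubiquitin ligase.

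On GRCm38 the genes lie on different chromosomes or far apart. Cpxm1 (ENSMUSG00000027408, chr2:130390775-130397574) and Ralgds (ENSMUSG00000026821, chr2:28513125-28553081) are on chromosome 2, and Plek (ENSMUSG00000020120, chr11:16971206-17052381) and Sphk1 (ENSMUSG00000061878, chr11:116530925-116536674) on chromosome 11. Steap4 is ENSMUSG00000012428 at chr5:7960457-7982213, and Clic4 is ENSMUSG00000037242 at chr4:135213969-135272814. Ppfia3 is ENSMUSG00000003863 at chr7:45339122-45367019, and Fem1c is ENSMUSG00000033319. Plek, Sphk1 and Ppfia3 overlap annotated antisense genes, and since the strand setting of the counting is not given in the sources used here, reads of such partners cannot be told apart.

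The 250 bases before the RefSeq start sites (GRCm38.p6) were searched for motifs on both strands, to see which letters genes that stood higher in the same libraries share near their starts. The motifs were CACCTG (the E-box that ZEB proteins bind), TGANTCA (AP-1), TGACGTCA (CRE), GAGGAAGT (PU.1), TATAAA (known as the TATA box) and the NF-kB consensus. Of the 8 genes, 7 matched the table, with 12 start sites, of which Sphk1 has 5 and Ralgds 2. The sequences shown are those of the gene with the highest level in Kupffer cells, which held none of these motifs, and of 4 genes in which a motif was found. They lie at chr11:17008719-17008968 (Plek, reverse strand), chr5:7960222-7960471 (Steap4, forward), chr11:116531587-116531836 (Sphk1, second start, forward), chr2:28533214-28533463 (Ralgds, second start, forward) and chr7:45367020-45367269 (Ppfia3, reverse). Capitals mark NF-kB and TATA matches in Steap4, an AP-1 match in Sphk1, and E-box matches in Ralgds and Ppfia3, all read 5′ to 3′ on the strand of the gene.
Plek: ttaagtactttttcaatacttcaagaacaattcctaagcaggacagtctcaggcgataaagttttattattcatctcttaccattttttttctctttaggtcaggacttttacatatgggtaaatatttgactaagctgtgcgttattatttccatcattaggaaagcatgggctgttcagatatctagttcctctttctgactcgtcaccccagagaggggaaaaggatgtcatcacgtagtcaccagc
Steap4: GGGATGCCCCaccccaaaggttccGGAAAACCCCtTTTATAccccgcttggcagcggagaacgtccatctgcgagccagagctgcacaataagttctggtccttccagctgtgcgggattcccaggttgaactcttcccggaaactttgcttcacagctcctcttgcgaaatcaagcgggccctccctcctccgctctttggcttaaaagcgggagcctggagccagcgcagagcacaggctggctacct
Sphk1: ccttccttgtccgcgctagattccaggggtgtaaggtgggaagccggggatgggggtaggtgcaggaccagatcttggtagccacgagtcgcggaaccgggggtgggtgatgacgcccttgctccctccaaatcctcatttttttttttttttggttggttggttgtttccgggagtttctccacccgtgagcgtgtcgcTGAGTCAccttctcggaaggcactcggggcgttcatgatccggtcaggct
Ralgds: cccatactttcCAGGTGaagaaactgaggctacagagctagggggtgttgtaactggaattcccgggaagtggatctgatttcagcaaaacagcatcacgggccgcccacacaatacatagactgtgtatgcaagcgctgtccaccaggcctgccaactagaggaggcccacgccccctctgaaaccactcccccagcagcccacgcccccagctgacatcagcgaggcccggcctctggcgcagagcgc
Ppfia3: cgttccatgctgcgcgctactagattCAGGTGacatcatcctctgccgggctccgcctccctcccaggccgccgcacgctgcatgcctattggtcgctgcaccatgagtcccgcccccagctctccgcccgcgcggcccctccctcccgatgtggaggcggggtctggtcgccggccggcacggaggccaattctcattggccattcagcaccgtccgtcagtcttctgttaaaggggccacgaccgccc

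No motif was common to the genes. The ZEB E-box was present in 2 of the 12 promoters, those of Ralgds (first base 239 bases before the start) and Ppfia3 (224 bases before), while 17.2% of all 32851 promoters in the table hold it. AP-1 was found at the starts 2 and 3 of Sphk1, which share the same 7 letters through overlapping windows, against 6.75% of all promoters. Steap4 held 2 matches to NF-kB (3.9% of all promoters) and a TATA box on the opposite strand, and the first start of Sphk1 held a TATA box 31 bases before it (12.4% of all promoters). CRE and PU.1 letters were in none of the 12, against 1.55% and 2.44% of all promoters. These matches describe the letters of a window and say nothing about binding.

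In Kupffer cells the 8 genes covered a wide range of levels. Per kilobase of exon in the libraries labelled KO, Plek had the highest level (mean 319 CPM per kb), followed by Clic4 (67.2), Fem1c (20.7), Steap4 (19.7), Ralgds (16.1), Cpxm1 (2.98), Sphk1 (2.80) and Ppfia3 (0.735). All 8 had both KO libraries above both WT libraries, which chose them and is no finding. Of all 13867 genes tested in Kupffer cells 18.5% had both KO libraries higher in this way and 18.8% had both lower. In these bulk libraries, fewer cells that carry a transcript and less of it per cell cannot be told apart.

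**Figure D1:**
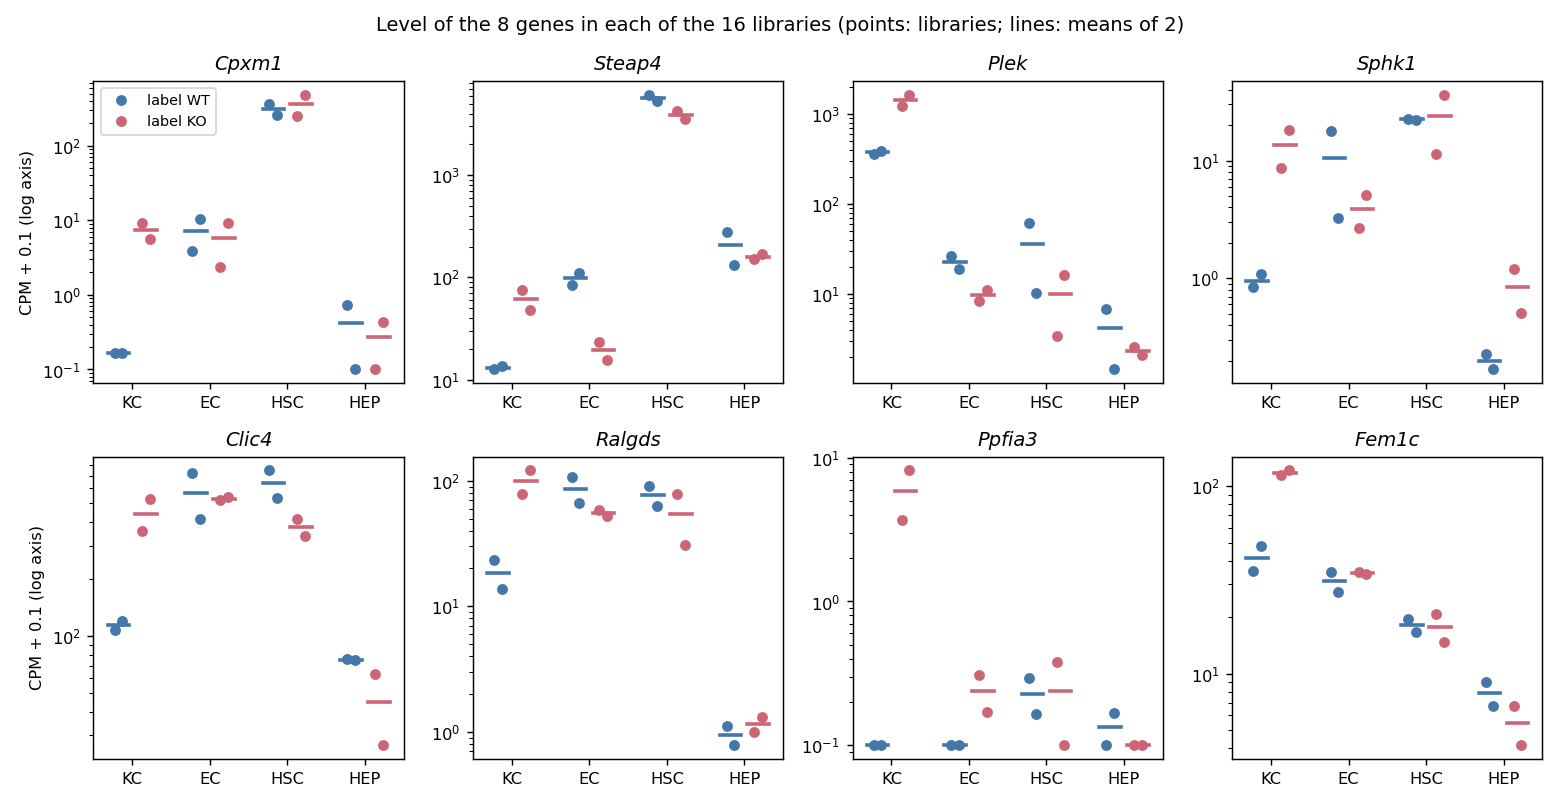
CPM + 0.1 on log axes (a separate axis for each gene) of the 8 genes in all 16 libraries, grouped by cell type (HEP, hepatocytes), with 1 point per library and lines at the means of 2. In Kupffer cells both KO points lie above both WT points in every panel, while Cpxm1 and Steap4 reach their highest level in HSCs and Plek and Fem1c in Kupffer cells.

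Cpxm1 had 1 count in each WT Kupffer cell library (0.0671 and 0.0652 CPM) and 137 and 81 counts in the KO libraries 27 and 43 (9.03 and 5.48 CPM). The ratio was 110, with an exact counting interval of 30.1 to 915 (95%, counting error only), since the WT group held 2 counts in all. The gene was at the edge of detection under one label and clearly detected under the other.

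Steap4 was at 12.5 and 13.5 CPM in the WT and at 76.0 and 48.2 CPM in the KO libraries of Kupffer cells. The WT libraries were nearly equal, and library 27 was the higher of the KO pair. The estimated log2 fold change was 2.19 (SE 0.35), or 4.78 times the WT mean.

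Cpxm1 and Steap4 are much more abundant in HSCs than in Kupffer cells, so HSC markers were read beside them. As a share of the WT HSC mean, Cpxm1 was at 0.0213% and 0.0207% in the KC libraries 31 and 39 and at 2.87% and 1.74% in 27 and 43. Steap4 was at 0.218%, 0.236%, 1.33% and 0.841% in the same order. The median of 10 HSC markers, none of them at 0, was 0.484%, 0.340%, 1.29% and 0.668%, with summed levels of 329, 191, 629 and 201 CPM. Steap4 thus stood below the HSC marker median in the WT libraries and close to or above it in the KO libraries, and Cpxm1 moved from far below that median to above it. Hepatocytes also express Steap4, and as a share of its WT hepatocyte mean it was at 6.04%, 6.54%, 36.8% and 23.3%, beside hepatocyte marker medians of 5.17%, 8.32%, 9.22% and 11.5%. The sort took Kupffer cells from the UV-negative gate, and the part of HSC or hepatocyte RNA in these values was not tested.

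**Figure D2:**
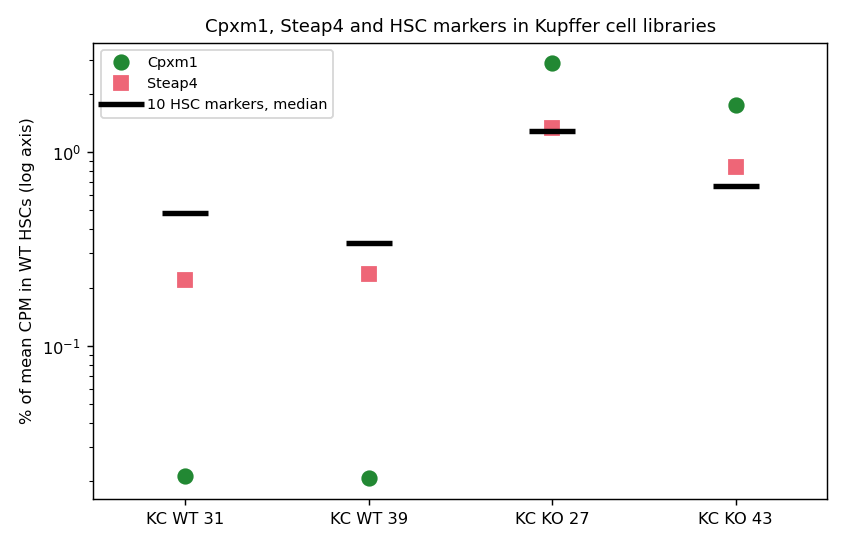
Level of Cpxm1 and Steap4 and the median of 10 HSC markers in each of the 4 Kupffer cell libraries, as % of the mean CPM in WT HSCs on a log axis. Cpxm1 lies at 0.0213% and 0.0207% in the WT libraries and above the marker median in the KO libraries (2.87% and 1.74%).

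Plek had the largest number of reads of the 8 genes in Kupffer cells. It was at 360 and 392 CPM in the WT libraries and at 1236 and 1630 CPM in the KO libraries. The log2 fold change was 1.88 (SE 0.31). Summed platelet markers, read because platelets carry pleckstrin, were at 43.6 and 40.2 CPM in the WT and 141 and 69.6 CPM in the KO libraries, and summed neutrophil markers at 87.7, 96.5, 305 and 98.5 CPM. Library 27 had the highest sum of both lists while library 43 had the higher Plek level, and their part in the result was not tested.

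Sphk1 was low in the WT Kupffer cell libraries, with 11 and 15 counts (0.738 and 0.979 CPM). It had 131 and 268 counts (8.64 and 18.1 CPM) in the KO libraries. The KO mean was 15.6 times the WT mean (log2 fold change 3.92, SE 0.68), and library 43 was the higher of the KO pair.

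Ralgds was at 23.2 and 13.6 CPM in the WT and at 78.1 and 121 CPM in the KO libraries, with a log2 fold change of 2.36 (SE 0.46). Clic4 was at 108 and 121 CPM in the WT and at 356 and 527 CPM in the KO libraries (1.91, SE 0.33). For both genes library 43 again exceeded library 27, as it did for Plek, Sphk1, Ppfia3 and Fem1c, while Cpxm1 and Steap4 had the opposite order.

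Ppfia3 had no reads in either WT Kupffer cell library. With 54 and 119 counts in the KO libraries (3.56 and 8.05 CPM), it was at least 29.3-fold higher than the floor of 3 counts per library. Its highest count in any of the 12 libraries of other cell types was 4, so that outside the KO-labelled Kupffer cells the gene stayed near or under the floor.

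Fem1c had the smallest difference of the 8 genes. It was at 35.2 and 47.7 CPM in the WT and at 115 and 121 CPM in the KO libraries (log2 fold change 1.47, SE 0.29). The KO pair was the more uniform one.

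The second question was whether these genes were also higher under the KO label in ECs, HSCs or hepatocytes, where the comparison did not choose them. Of the members that passed the filter on low counts (7 in ECs, 7 in HSCs and 5 in hepatocytes), none had both KO libraries above both WT libraries, against 24%, 19.9% and 19.9% of all genes tested. Among members that did not pass the filter, both KO libraries were higher for Sphk1 in hepatocytes (2 and 1 counts against 17 and 6). The same held for Ppfia3 in ECs (0 and 0 counts against 3 and 1). One gene, Steap4, passed the threshold, and it fell, in ECs. Whether the difference between Kupffer cells and another cell type exceeds the spread was not tested, because the Kupffer cell values chose the genes.

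**Figure D3:**
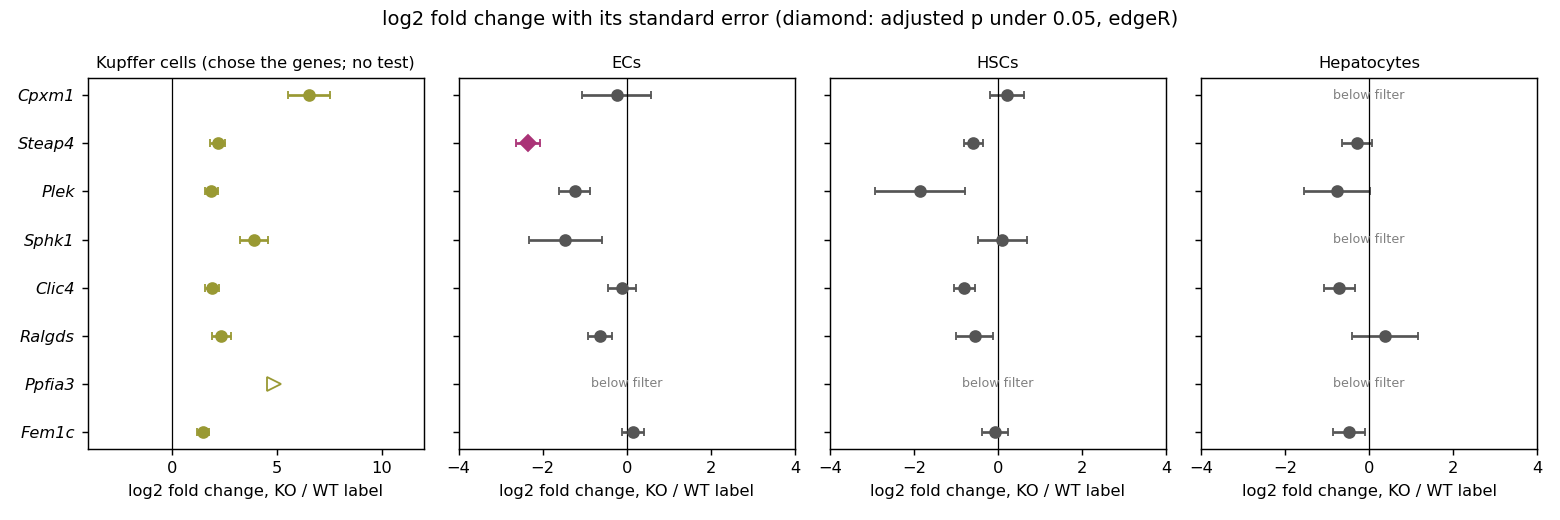
log2 fold change between KO and WT labels with its standard error for the 8 genes in the 4 cell types (edgeR, n = 2 per label). Kupffer cell values lie to the right of 0 for all 8 genes by their choice, with an open triangle at the lower bound for Ppfia3 (29.3-fold), and only Steap4 in ECs passes the threshold elsewhere (diamond, -2.35).

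In ECs Steap4 was at 84.7 and 111 CPM in the WT libraries and at 23.5 and 15.3 CPM in the KO libraries. Both KO libraries were below both WT libraries, and the level fell by 2.35 on the log2 scale (SE 0.28, adjusted p = 0.0290, edgeR quasi-likelihood test with Benjamini-Hochberg adjustment). It was the only member called of 7 tested, where 1.97% of 14631 genes were called lower. The call was lost without EC KO library 6 (adjusted p = 0.0517), without library 46 (adjusted p = 0.0758), and when hepatocyte-enriched genes other than Steap4 were left out (adjusted p = 0.134), a setting chosen after the data had been seen. The estimate itself was -2.61, -2.10 and -2.39 in these settings, so that the size of the difference was kept while the adjusted p moved. Marker levels moved in the same direction: the HSC marker median was 1.33% and 2.01% of the WT HSC level in the WT and 0.606% and 0.785% in the KO libraries of ECs, where Steap4 was at 1.48% and 1.94% and at 0.410% and 0.267% of its own. Hepatocyte markers were at 11.4% and 24.3% in the WT and at 2.44% and 2.00% in the KO libraries, and the part of either cell type was not tested.

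The other members did not pass the threshold in ECs. Plek was at 26.5 and 19.0 CPM in the WT and at 8.29 and 11.0 CPM in the KO libraries, without overlap (log2 fold change -1.24, SE 0.37, adjusted p = 0.193, edgeR). Kupffer cell markers in these libraries were at a median of 1.64% and 0.851% in the WT and 2.05% and 1.87% in the KO libraries, the opposite direction. Summed B cell markers were at 236 and 709 CPM against 147 and 158 CPM, and T and NK cell markers at 73.3 and 124 against 33.4 and 27.3 CPM. Neutrophil markers (22.3 and 146 against 39.6 and 13.1 CPM) overlapped, and platelet markers were at 29.7 and 40.9 against 67.5 and 39.6 CPM. The part of any of these cells in the Plek values was not tested. Ralgds was at 106 and 65.9 CPM against 58.4 and 52.3 CPM (-0.65, SE 0.29, adjusted p = 0.368, edgeR). With Steap4 these made 3 of 7 members with both KO libraries lower, beside 24.5% of all genes. Clic4 had nearly the same mean under both labels, 571 and 529 CPM (log2 fold change -0.11, SE 0.33), as did Fem1c with 31.0 and 34.3 CPM (0.14, SE 0.26). Cpxm1 (-0.24, SE 0.81) and Sphk1 (-1.46, SE 0.86) varied widely between libraries of the same label, and Ppfia3 (0 and 0 counts against 3 and 1) was not tested.

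In HSCs, where Cpxm1, Steap4 and Sphk1 have their highest mean under both labels, no member passed the threshold. Clic4 was highest in WT HSCs (mean 641 CPM), while KO HSCs (376 CPM) stood below the WT and KO EC means (571 and 529 CPM). The edgeR test called none of all 14390 genes, 8.75% had an unadjusted p under 0.05, and DESeq2 called 2.82% and no member. Steap4 was at 6128 and 5329 CPM in the WT libraries (32 and 40) and at 4262 and 3525 CPM in the KO libraries (8 and 20), with an adjusted p of 0.569 (edgeR, log2 fold change -0.58, SE 0.23). Clic4 was at 746 and 536 CPM against 415 and 337 CPM (-0.80, SE 0.26, adjusted p = 0.470, edgeR). Both had lower KO libraries without overlap, 2 of 7 members beside 20.6% of all genes, and both had an unadjusted p under 0.05. Cpxm1 was at 369 and 260 CPM against 251 and 484 CPM (0.22, SE 0.41), so that its labels overlapped.

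Plek was low in HSCs and uneven between libraries of the same label. It was at 61.3 and 10.3 CPM in the WT and at 3.32 and 16.4 CPM in the KO libraries (log2 fold change -1.86, SE 1.07, adjusted p = 0.722, edgeR). The median Kupffer cell marker in libraries 32, 40, 8 and 20 was 5.27%, 0.90%, 1.02% and 4.82% of its WT Kupffer cell level. The 2 libraries with the most Kupffer cell marker RNA, one of each label, also had the most Plek, and the part of that RNA was not tested.

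In hepatocytes 5 members passed the filter and none passed the threshold by edgeR or DESeq2, which called 0 and 0.234% of all 11548 genes. None of them had an unadjusted p under 0.05, beside 7.11% of all genes. Clic4 was at 75.5 and 75.0 CPM in the WT libraries (29 and 33) and at 63.0 and 26.6 CPM in the KO libraries (25 and 41), with a log2 fold change of -0.71 (SE 0.37). Fem1c was at 8.92 and 6.61 CPM against 6.64 and 4.04 CPM, which overlapped before normalization and not after it (-0.48, SE 0.39). These were 2 of 5 members with lower KO libraries, beside 20.9% of all genes. Sphk1 had too few reads for the test, with 2 and 1 counts in the WT and 17 and 6 in the KO libraries. Its ratio was 7.67 with an exact counting interval of 2.32 to 39.9, which covers counting error only and not the spread between libraries. Outside Kupffer cells Sphk1 was the one member with more than the floor count under the KO label and both KO libraries higher.

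The difference between labels was also compared among the 3 cell types that had not chosen the genes. The edgeR interaction test called no member between ECs and HSCs, ECs and hepatocytes, or HSCs and hepatocytes. It called 0, 0.0362% and 0 of all 16577 genes in these comparisons. At an unadjusted p under 0.05 there were 1, 2 and 0 members, beside 5.92%, 10.7% and 8.13% of all genes. Steap4 differed by -1.76 (SE 0.49) on the log2 scale between ECs and HSCs, with an adjusted p of 0.534 by edgeR and 0.0311 by DESeq2. Between ECs and hepatocytes it differed by -2.11 (SE 0.49), with 0.126 by edgeR and 0.000777 by DESeq2. The call therefore depended on the tool, and DESeq2, which called 0.929% and 4.29% of all genes in these comparisons, called no other member.

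Levels in the WT libraries separated the members by cell type. Between ECs and HSCs the edgeR test called 2 of 7 members, Cpxm1 (log2 difference -5.79, SE 0.81, adjusted p = 0.00639) and Steap4 (-6.15, SE 0.51, adjusted p = 0.00110), both lower in ECs, where 6.98% of 15326 genes were lower. ECs exceeded hepatocytes in Cpxm1 (3.05), Sphk1 (5.35), Clic4 (1.58) and Ralgds (5.31) and were below them in Steap4 (-2.41), which made 5 of 7 members called beside 48.7% of all genes. HSCs exceeded hepatocytes in the same 5 genes, by 2.02 for Clic4 to 8.84 for Cpxm1, beside 46.4% of all genes. Plek and Fem1c passed none of these tests, and Ppfia3 was not tested.

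Set beside these levels, the Kupffer cell libraries labelled KO reached different places in the order of the groups. Clic4 at 527 CPM in library 43 lay within the range of ECs (414 to 727 CPM) and at 356 CPM in library 27 below it, and Ralgds at 78.1 and 121 CPM overlapped WT ECs (65.9 and 106 CPM). Sphk1 (8.64 and 18.1 CPM) overlapped WT ECs (3.19 and 17.7 CPM), and Cpxm1 (9.03 and 5.48 CPM) overlapped both EC groups. The WT Kupffer cells, by contrast, were below every EC and HSC library for Cpxm1, Sphk1, Clic4 and Ralgds. Plek and Fem1c were highest in KO-labelled and next highest in WT-labelled Kupffer cells, and Fem1c in WT Kupffer cells (35.2 and 47.7 CPM) was just above the highest EC library (34.7 CPM). Steap4 in KO-labelled Kupffer cells stayed below every hepatocyte and HSC library.

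Families and pathways of the 8 genes were read from lists that leave the members out, beside lists of 44 macrophage activation and 25 immediate early genes. In all, 163 of 174 genes of these lists were tested in Kupffer cells, and edgeR called none, as it called none of all 13867 genes. At an unadjusted p under 0.05, 9 were higher and 14 lower, where 3.35% and 1.74% of all genes were. The activation list held 6 of those higher and 1 of those lower, and the immediate early list 12 of those lower. DESeq2 called 9 of the listed genes, 7 of them immediate early and 1 of the activation list, and 72 genes in all (0.519%).

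In 5 of the family lists no relative had an unadjusted p under 0.05 in Kupffer cells, which at n = 2 does not show that their levels were alike. Clic1, the most abundant member of its family, was at 569 and 466 CPM in the WT and at 490 and 527 CPM in the KO libraries (log2 fold change -0.09, SE 0.31). None of the 19 tested genes of Ral signalling had an unadjusted p under 0.05, and Rgl1, another Ral exchange factor, was at 231 and 248 CPM against 362 and 368 CPM (0.55, SE 0.27). None of 11 liprins and partners, 10 genes of pleckstrin and protein kinase C, or 9 genes of the carboxypeptidase list did either. The carboxypeptidase list had a median of 1.10 beside -0.02 over all genes, with 8 of 9 estimates positive. Without overlap, 4 of its 9 genes were higher and 1 was lower, beside 18.5% and 18.8% of all genes. Of the genes chosen after their values were seen, Cpd was at 6.17 and 1.57 CPM against 13.2 and 16.0 CPM (1.80, SE 0.76), Cpm at 0.939 and 0.391 CPM against 3.10 and 2.50 CPM (1.96, SE 1.10), and Cpe at 0.872 and 0 CPM against 3.43 and 3.05 CPM (2.73, SE 1.69). Cpq, the most abundant of the list and of another peptidase family than Cpxm1, had the one negative estimate (-0.28, SE 0.28). Cpb2, a gene of hepatocytes, was at 28.8 and 37.7 CPM against 41.0 and 83.8 CPM, beside a hepatocyte marker median of 5.17% and 8.32% against 9.22% and 11.5%, whose part was not tested.

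Single relatives in 3 lists had an unadjusted p under 0.05 in Kupffer cells. Slc11a2, an iron transporter of endosomes, was at 44.9 and 38.4 CPM in the WT and at 106 and 140 CPM in the KO libraries (1.50, SE 0.33), with an adjusted p of 0.933 by edgeR and 0.0192 by DESeq2. It was 1 of 14 tested genes of the STEAP and iron list, whose most abundant genes Ftl1 (0.07, SE 0.29) and Slc40a1 (0.20, SE 0.58) had no such p. Acer2, a ceramidase that supplies the substrate of Sphk1, was at 4.56 and 18.5 CPM against 37.7 and 37.0 CPM (1.70, SE 0.61), and Sphk2, the second sphingosine kinase, at 55.3 and 94.9 CPM against 49.2 and 37.4 CPM (-0.83, SE 0.33). Fem1b, a paralog of Fem1c, was at 8.32 and 8.03 CPM against 18 and 21.3 CPM (1.21, SE 0.41). The edgeR adjusted p of Acer2, Sphk2 and Fem1b was 0.933 each.

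Macrophage activation genes and immediate early genes lay on opposite sides of 0 in Kupffer cells. Of 44 activation genes, 33 had a positive and 11 a negative estimate (median 0.56), 6 had an unadjusted p under 0.05 and were higher, and 1, Marco, was lower. Plaur, the urokinase receptor, was at 108 and 51.0 CPM in the WT and at 268 and 560 CPM in the KO libraries (log2 fold change 2.31, SE 0.57, adjusted p = 0.933 by edgeR and 0.00362 by DESeq2). Nos2, the inducible nitric oxide synthase, had no reads in the WT libraries and 1.45 and 2.30 CPM in the KO libraries. The most abundant genes of the list, Nfkbia (-0.43, SE 0.38) and the cytokine Il1b (-0.83, SE 0.52), had negative estimates without an unadjusted p under 0.05. Markers of other cells also had mostly positive estimates: 8 of 8 tested neutrophil markers (median 2.51), 5 of 8 monocyte markers (median 1.36), 9 of 10 endothelial markers (0.47) and 9 of 10 HSC markers (0.79). Their sums in libraries 31, 39, 27 and 43 were 87.7, 96.5, 305 and 98.5 CPM for neutrophil and 178, 117, 244 and 113 CPM for monocyte markers. For endothelial markers they were 775, 1086, 1402 and 1125 CPM, and for HSC markers 329, 191, 629 and 201 CPM. Library 27 thus had the highest sum of each list, while library 43 lay close to a WT library. The part of these cells was not tested.

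Of 25 immediate early genes, which cells switch on within minutes of a stimulus and also during tissue dissociation, 22 had a negative estimate in Kupffer cells (median -0.88). An unadjusted p under 0.05 was found for 12, all lower, and DESeq2 called 7, all lower, and edgeR none. Fos, a subunit of AP-1, was at 3896 and 7899 CPM in the WT and at 1119 and 355 CPM in the KO libraries (-3.04, SE 0.60), with an adjusted p of 0.933 by edgeR and 4.33e-06 by DESeq2. Ier2 was at 892 and 1738 CPM against 310 and 261 CPM (-2.23, SE 0.36), and the phosphatase Dusp1 at 6702 and 8702 CPM against 2863 and 2261 CPM (-1.64, SE 0.29). These genes thus stood lower in the 2 libraries in which the 8 members stood higher, and the part of that response in the levels of the 8 genes was not tested. In ECs, HSCs and hepatocytes the median of the same list was -0.39, -0.14 and -0.33.

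**Figure D4:**
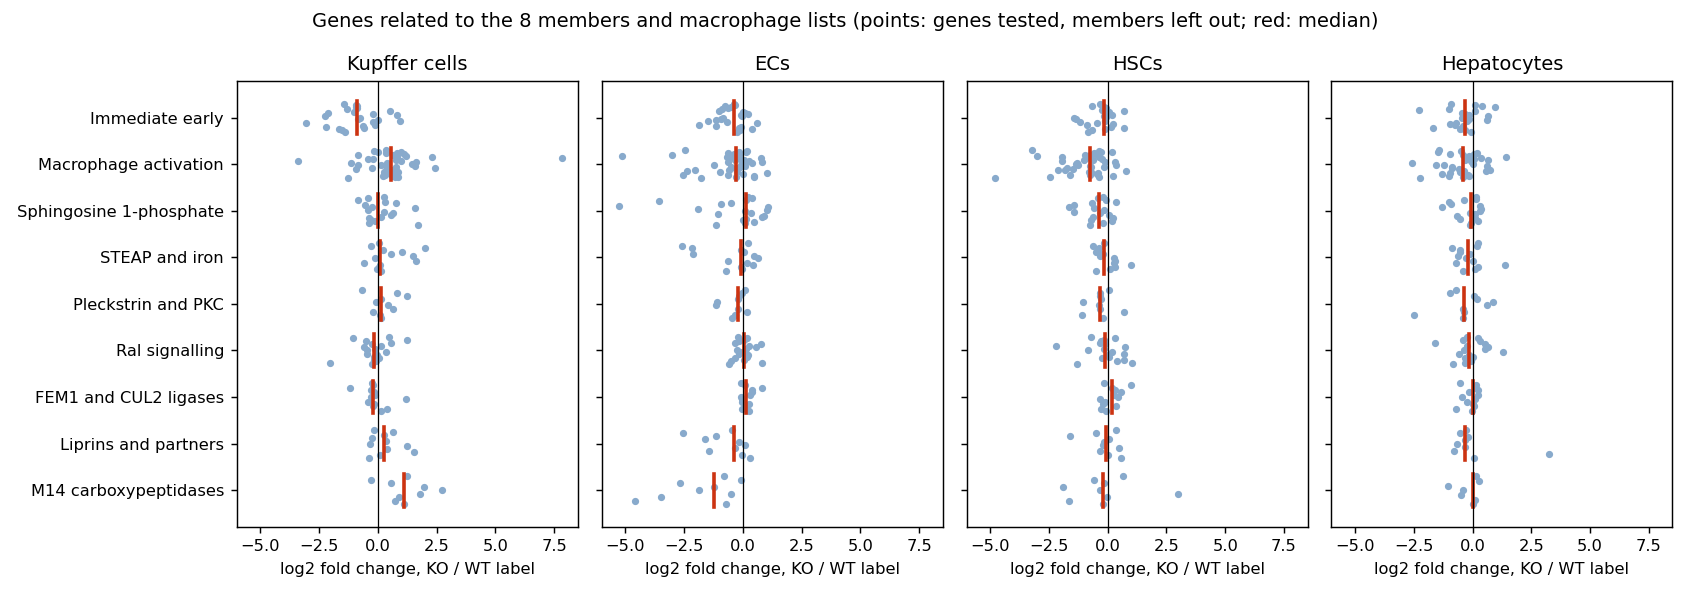
log2 fold change between KO and WT labels of genes related to the 8 members and of macrophage lists in the 4 cell types (points, genes tested, members left out, red lines, list medians, n = 2 libraries per label). In Kupffer cells the immediate early median lies at -0.88 and the macrophage activation median at 0.56.

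Over all 16 libraries, the genes whose log2 CPM was most like that of each member differed between members. As a description across cell types that share libraries, Cpxm1 was closest to P3h2 (Pearson r 0.963) and Itm2a (0.956), and Steap4 to Tmem56 (0.989) and Cxcl12 (0.986). Plek was closest to Cd83 (0.978) and Slfn2 (0.975), and Fem1c to Vps18 (0.948) and Adam17 (0.945). Ralgds was close to Nfat5 (0.958), and Clic4 was closest to Herc6 (0.903) and Lamb2 (0.901) and Sphk1 to Adamts4 (0.877) and Snx22 (0.876). Ppfia3 was closest to Olfr222 (0.949) and Rab11fip4os1 (0.947), over libraries in most of which it had few or no reads. No member was among the 2 nearest genes of another.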

How the data were processed

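The authors deposited raw counts of reads per Ensembl gene, 1 table per library. The submitters' processing notes name Trimmomatic 0.32, HISAT2 2.1.0, HTSeq 0.9.1, edgeR and GRCm38. The annotation release and strand setting are not given in the sources used here, and series and sample descriptions name different library kits (Smart-seq2 and TruSeq stranded mRNA). The 5 HTSeq summary lines, 42.5% to 57.5% of reads per library, were left out of totals. CPM used these totals, and levels per kb the union of exons of GENCODE M21, which holds 98.9% of the identifiers.

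Each cell type was fitted with edgeR 4.0.16 (R 4.3.3): filterByExpr, TMM, quasi-likelihood test, Benjamini-Hochberg over all genes tested, adjusted p under 0.05. WT levels and interactions were fitted over ECs, HSCs and hepatocytes. Standard errors were the absolute log2 fold change divided by the square root of F. DESeq2 1.42.0 was an alternative, beside RLE scaling, other count filters, fits without hepatocyte-enriched genes (857 genes with 10 CPM or more in WT hepatocytes and 8 times or more their WT Kupffer cell level) and fits without each library. The scripts were tested on simulated data. Replicates differed by more than sampling noise (mean chi-square per gene 29.6 to 109), so none were merged in the tests.

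The 8 genes and all lists were chosen with earlier results of these data known. Genes named are the 8 members, Zeb2, in each list the 2 genes highest in Kupffer cells and up to 4 past a threshold (adjusted in any cell type or unadjusted in Kupffer cells), and the 2 genes most correlated with each member (for Ralgds, 1 of the 2 is not reported here). Genes ranked beside the members in Kupffer cells were named after their values were seen. Motifs were searched in RefSeq promoters. Intervals used the summed counts of the libraries of a label and cover counting error only, not the spread between libraries.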

Additional observations from a re-analysis of the deposited data

Results flagged for a closer look

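Steap4, Plek, Clic4, Ralgds and Fem1c each had both KO libraries above both WT libraries in Kupffer cells and both below them in another cell type after normalization (before it, Fem1c overlapped in hepatocytes). These differences between cell types were not tested, because the Kupffer cell values chose the genes. In ECs the log2 fold changes were -2.35 for Steap4, -1.24 for Plek and -0.65 for Ralgds, where 38.5% of all genes higher in Kupffer cells without overlap were lower in ECs without overlap. In HSCs they were -0.58 for Steap4 and -0.80 for Clic4 (32.1% of such genes), and in hepatocytes -0.71 for Clic4 and -0.48 for Fem1c (22.4% of such genes). Steap4 was thus in opposite directions in 2 cell types, and so was Clic4. Of these 7 values, the one of Steap4 in ECs passed the edgeR threshold.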

How the results depend on the processing

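In Kupffer cells the log2 fold change of all 8 genes was above 0 in every setting run, a sign that their choice fixes and that says nothing about stability, and it ranged without each library from 1.37 for Fem1c to, leaving aside Ppfia3 with no WT reads, 6.83 for Cpxm1. No paired analysis was possible because the groups share no replicate numbers. In ECs the number of members past the threshold went from 1 to 0 without hepatocyte-enriched genes (Steap4 is one of them), to 0 also without those other than Steap4 (a setting chosen after the data had been seen, in which its log2 fold change was -2.39 against -2.35), and ranged from 0 to 1 without each library. In HSCs it was 1 with no filter on low counts, for Plek (adjusted p = 0.00577). With at least 10 counts in every library, fewer members were tested, and the counts between WT cell types were 1 (ECs and HSCs), 3 (ECs and hepatocytes) and 3 (HSCs and hepatocytes). Interactions gave 1 call by DESeq2 and 1 with no filter between ECs and HSCs, and 1 and 2 between ECs and hepatocytes. Genes of the family, activation and immediate early lists past the threshold numbered 9 (DESeq2) and 14 (no filter) in Kupffer cells, 18, 20 and, with at least 10 counts, 9 in ECs, 5 and 16 in HSCs, and 8 with no filter in hepatocytes. DESeq2 called 0.519%, 6.72% and 2.82% of all genes in Kupffer cells, ECs and HSCs. The share of all genes called with the other filters is not given here, so those counts cannot be set beside it. The cause of the changes between settings was not tested. Estimates that changed sign without 1 library were, in ECs, Cpxm1 (-1.64 to 0.59), Sphk1 (-2.23 to 0.31), Clic4 (-0.48 to 0.40) and Fem1c (-0.042 to 0.37), in HSCs, Cpxm1 (-0.42 to 0.66), Sphk1 (-1.07 to 0.74) and Fem1c (-0.26 to 0.10), and in hepatocytes, Steap4 (-0.69 to 0.29) and Plek (-1.47 to 0.74). A lone library left in a group was assumed to vary like the others. With 2 libraries per group, and with 1 count per WT library for Cpxm1 and none for Ppfia3, depth and replication limit all of these values.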

Other observations

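Among the genes of the family, macrophage activation and immediate early lists, 5 of 161 tested passed the edgeR threshold in ECs. All were lower under the KO label, where 1.97% of all genes were called lower. From the family lists came the carboxypeptidases Cpn1 (log2 fold change -2.67, SE 0.39, adjusted p = 0.0326, edgeR) and Cpb2 (-3.47, SE 0.46, adjusted p = 0.0300, edgeR) and the zinc and iron transporter Slc39a14 (-2.11, SE 0.36, adjusted p = 0.0469, edgeR). From the activation list came the NF-kB inhibitor Tnfaip3 (-2.45, SE 0.38, adjusted p = 0.0366, edgeR) and the chemokine Ccl5 (-2.53, SE 0.39, adjusted p = 0.0367, edgeR). Cpb2 was at 60.9 and 146 CPM in the WT and at 11.2 and 7.51 CPM in the KO libraries. Tnfaip3 was at 408 and 209 CPM against 51.3 and 61.9 CPM, and Ccl5 at 23.7 and 34.6 CPM against 4.11 and 5.91 CPM. Summed T and NK cell markers in these libraries were at 73.3 and 124 CPM against 33.4 and 27.3 CPM. The Kupffer cell marker median went the other way, from 1.64% and 0.851% to 2.05% and 1.87%. The part of these cells in the Tnfaip3 and Ccl5 values was not tested. Cpn1, Cpb2 and Slc39a14 are genes of hepatocytes, whose marker median in these EC libraries was 11.4% and 24.3% against 2.44% and 2.00%, and its part was not tested. In HSCs and hepatocytes edgeR called none of 157 and 146 listed genes, as it called none of all 14390 and 11548 genes. At an unadjusted p under 0.05 there were 17 and 13, beside 8.75% and 7.11% of all genes. DESeq2 called 5 in HSCs, where it called 2.82% of all genes.

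The macrophage activation list had a median of -0.28 in ECs, -0.74 in HSCs and -0.39 in hepatocytes, against 0.56 in Kupffer cells. Of 40 activation genes tested in HSCs, 35 had a negative estimate, and 5 had an unadjusted p under 0.05, all lower, beside 7% of all genes lower at that p. In the same libraries 10 of 10 endothelial markers (median -1.20) and 10 of 10 hepatocyte markers (median -2.57) had a negative estimate, and their part was not tested.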
